A study of Mus musculus with 55 samples.

Results

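Kupffer cells (KC), the macrophages that reside in the liver sinusoids, were compared with the blood cells sorted from the same organ. The comparison rested on 4 of the 55 libraries of the series, taken by their titles: 2 of normal KC and 2 of normal blood. All 4 came from the liver of mice of strain C57B/L6 and were labelled normal. The cells had been separated by fluorescence-activated cell sorting into TRIzol, a lysis reagent that preserves RNA, and the sequencing libraries followed the usual Illumina procedure. The labels name no surface antigen for either sort and no age, and do not say whether the 2 libraries of a group came from separate mice. The p-values below therefore measure the spread between these libraries, which may be technical. The other libraries held 8 further sorted populations and the same populations after partial hepatectomy (PH, surgical removal of part of the liver). Of these, the 3 libraries of PH KC and the 2 labelled PH blood, from the same strain with no time after surgery given, are set beside the normal ones at the end.

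Kupffer cells line the sinusoids, where they take up bacteria, dead cells and aged red cells from portal and arterial blood, recycle iron and secrete cytokines. They are renewed largely in place, and their identity depends on growth factor signals and on transcription factors such as LXR alpha (Nr1h3), Spic and Id3. The blood that fills the liver brings T cells, B cells, natural killer (NK) cells, neutrophils, monocytes and dendritic cells, and the liver is known for its many NK and CXCR6-positive T and NKT cells.

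The 5 genes used to check the labels are Clec4f, a galactose-binding lectin of Kupffer cells, Cd5l, a secreted macrophage protein, Timd4, a receptor for phosphatidylserine on dying cells, Cd3e, a chain of the T cell receptor complex, and Ngp, a granule protein of maturing neutrophils. Their promoters are shown because these genes mark the sorted cells. Each line is the 250 bases before the RefSeq start of the gene, read 5′ to 3′ on the gene's strand in GRCm38.p6, a later build than that of the expression table. Capitals mark matches, on either strand, to 4 short motifs chosen after these sequences had been seen: an ETS core (AGGAAGT), a RUNX site (TGTGGTT), a C/EBP site (TTGCNNAA) and a MAF half-site (TGCTGAC). Factors of the ETS and MAF families act in macrophages, ETS and RUNX factors in T cells and C/EBP factors in myeloid cells.
Clec4f (chr6:83656117-83656366, minus strand): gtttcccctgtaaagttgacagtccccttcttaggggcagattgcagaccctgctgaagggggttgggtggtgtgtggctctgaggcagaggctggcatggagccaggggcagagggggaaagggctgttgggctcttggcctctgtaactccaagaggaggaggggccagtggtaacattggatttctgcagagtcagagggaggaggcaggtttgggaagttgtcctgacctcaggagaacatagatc
Cd5l (chr3:87357631-87357880, plus strand): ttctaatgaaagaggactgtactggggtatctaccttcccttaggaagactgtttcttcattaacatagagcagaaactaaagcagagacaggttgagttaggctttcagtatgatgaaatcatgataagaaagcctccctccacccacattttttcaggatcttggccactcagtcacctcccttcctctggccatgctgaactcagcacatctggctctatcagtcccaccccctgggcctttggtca
Timd4 (chr11:46810549-46810798, plus strand): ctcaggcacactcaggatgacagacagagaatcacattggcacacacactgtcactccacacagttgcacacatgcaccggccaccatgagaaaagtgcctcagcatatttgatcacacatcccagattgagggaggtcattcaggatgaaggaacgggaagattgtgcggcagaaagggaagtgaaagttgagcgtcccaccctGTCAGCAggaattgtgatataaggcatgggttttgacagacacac
Cd3e (chr9:45009612-45009861, minus strand): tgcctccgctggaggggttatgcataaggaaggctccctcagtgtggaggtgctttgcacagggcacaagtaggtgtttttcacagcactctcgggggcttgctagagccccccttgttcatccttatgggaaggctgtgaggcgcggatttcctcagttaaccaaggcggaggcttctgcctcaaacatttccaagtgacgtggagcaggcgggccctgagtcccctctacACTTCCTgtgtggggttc
Ngp (chr9:110419558-110419807, plus strand): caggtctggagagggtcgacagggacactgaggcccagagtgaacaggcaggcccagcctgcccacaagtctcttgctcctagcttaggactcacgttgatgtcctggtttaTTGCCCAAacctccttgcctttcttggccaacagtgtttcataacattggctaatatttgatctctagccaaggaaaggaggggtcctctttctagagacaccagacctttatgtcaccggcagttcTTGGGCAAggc
The Timd4 sequence held 1 match to the MAF half-site, Cd3e 1 match to the ETS core and Ngp 2 matches to the C/EBP site, and the Clec4f and Cd5l sequences held none. Over all 32851 promoters of the same length in that table, 7.69% held the ETS core, 4.4% the RUNX site, 9.56% the C/EBP site and 3.81% the MAF half-site. No matches overlapped in the sequences shown. Of the 18 genes of the Kupffer identity list described below, 16 had a promoter in the table. Of these 16, 3 held the ETS core, 2 the MAF half-site, 1 the RUNX site and 1 the C/EBP site. Of 15 promoters matched for the T cell list, 7 held the ETS core, 4 the C/EBP site, 1 the RUNX site and 1 the MAF half-site. Of 19 matched for the neutrophil list, 8 held the ETS core, 7 the C/EBP site, 3 the MAF half-site and 0 the RUNX site. A match is a description of the letters and not a bound site.

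Expression is given in FPKM, a count of fragments scaled by transcript length and by the reads mapped in the library. Replicates were alike across 24478 genes, with a Pearson r of log2(FPKM + 1) of 0.989 between the KC libraries and 0.994 between the blood libraries, against 0.850 to 0.862 between a KC and a blood library. These correlations are across genes, which are not independent replicates. Transcripts abundant in hepatocytes were often listed at exactly 0 in both sorts. Of the 301 genes at 300 FPKM or more in normal hepatocytes, 62.8% and 64.8% were at 0 in the KC libraries and 53.8% and 53.2% in the blood libraries, and all 14 genes of a hepatocyte list, such as Alb, were at 0 in all 4 libraries. How these zeros arose was not tested, so a gene at 0 is described as listed at 0. Of 12817 genes tested, 3507 (27.4%) were higher in KC and 6088 (47.5%) were higher in blood, with limma and an adjusted p under 0.05. Together 9595 genes (74.9%) differed, and for 11266 (87.9%) the libraries of the sorts did not overlap. A gene under 1 FPKM in both libraries of a sort was tested only if both libraries of the other sort reached 1 FPKM. Such a gene cannot overlap, so the filter fixes part of these shares and of the counts in the gene lists. With 2 libraries in each sort, many genes would also separate by chance alone. Counts in the gene lists below are to be read against these shares. The median difference over all genes was -0.40 on the log2 scale, KC minus blood, and -0.16 after quantile normalization, so medians of gene lists are set beside -0.40. Differences are of log2(FPKM + 1), which understates those of low genes, and each is KC minus blood. In these bulk libraries a smaller number of cells of a type and less RNA per cell cannot be told apart.

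The markers followed the labels. Clec4f was at 4312 and 3499.6 FPKM in KC libraries 1 and 2 and at 163 and 272 FPKM in blood libraries 1 and 2. Cd5l was at 4326 and 4258 FPKM in KC and 129 and 222 FPKM in blood, and Timd4 at 411 and 383 FPKM against 13.8 and 24.9 FPKM. Both KC libraries lay far above both blood libraries for these genes. The log2 differences were 4.20 (SE 0.27) for Clec4f, 4.66 (SE 0.27) for Cd5l and 4.34 (SE 0.27) for Timd4, with limma adjusted p of 0.00017, 0.000128 and 0.000154. Cd3e was at 0.125 and 0.0499 FPKM in KC and 294 and 327 FPKM in blood, a difference of -8.16 (SE 0.13, limma adjusted p 2.59e-05). Ngp was at 1.38 and 0 FPKM in KC and 213 and 277 FPKM in blood, a difference of -7.31 (SE 0.42, limma adjusted p 0.000126). In the table's build, mm9 per the submitters' processing notes, Clec4f lies on chromosome 6 from 83594536 to 83606110 on the minus strand and Cd3e on chromosome 9 from 44806826 to 44817673 on the minus strand.

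**Figure D1:**
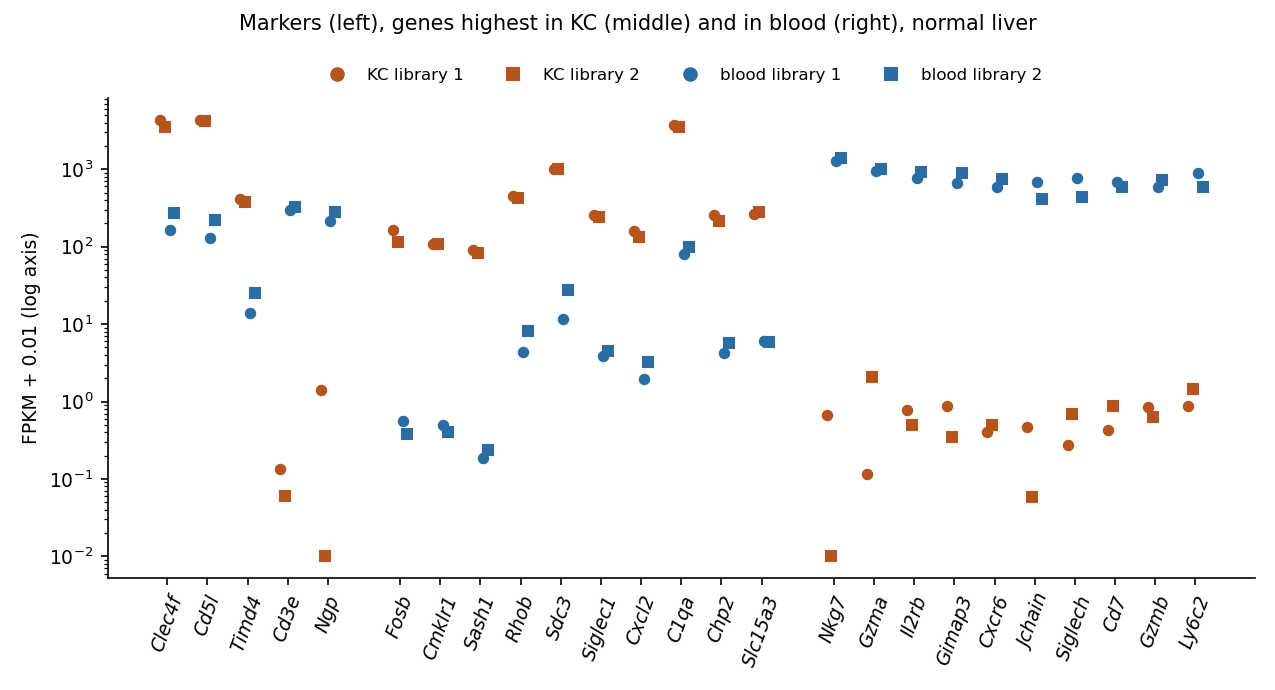
FPKM + 0.01 on a log axis for each of the 4 normal libraries, with circles for library 1 and squares for library 2 of KC (orange) and blood (blue). Of the 25 genes, Nkg7 and Ngp were listed at 0 in KC library 2.

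All 18 genes of the Kupffer identity list were higher in KC, against 27.4% of all genes tested, with a median difference of 4.23. Fcna (ficolin A, a lectin of the complement system) was at 2556 and 2082 FPKM in KC and 117 and 206 FPKM in blood. Vsig4, the complement receptor CRIg, was at 2324 and 1954 FPKM in KC and 90.4 and 145 FPKM in blood, and the folate receptor gene Folr2 at 1374 and 1312 FPKM against 37 and 64.7 FPKM. The largest difference of the list was that of Siglec1 (CD169, a sialic acid receptor), 5.61, and the smallest that of Id3, 2.11. Id3 was also the member with the highest share left in blood, at 611 and 642 FPKM in KC and 158 and 131 FPKM in blood. Its mean was 627 FPKM in KC, and 583, 592 and 534 FPKM in the normal sinusoidal endothelial, stellate and Thy1 sorts. Id3 thus did not set KC apart from those populations. The blood mean was between 1.66% and 23.1% of the KC mean over the 18 genes, with a median of 5.03%. Clec4f and Cd5l, the most abundant genes of the list in KC, stood at more than 100 FPKM in both blood libraries. Summed over the list, the KC libraries held 20393 and 18190.0 FPKM and the blood libraries 954 and 1431 FPKM. Whether the sum in blood comes from Kupffer cells in that sort was not tested.

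Genes of sinusoidal endothelial cells (LSEC), which share the sinusoid with Kupffer cells, were also higher in the KC libraries. Of 20 genes of an LSEC list, 19 were higher in KC and 0 lower, with a median of 2.25, and Wnt9b did not pass (2.87 and 1.62 FPKM in KC, 1.77 and 1.72 FPKM in blood). Clec4g, a lectin of LSEC, was at 1309.9 and 1868 FPKM in KC and 335 and 403 FPKM in blood, against a mean of 3411 FPKM in the 3 normal LSEC libraries. Dnase1l3, a secreted nuclease, was at 531 and 575 FPKM in KC and 57.9 and 60.5 FPKM in blood, and the VEGF receptor gene Kdr at 358 and 483 FPKM against 114 and 118 FPKM. The sum over the list was 5951 and 7712 FPKM in the KC libraries, 1378 and 1582 FPKM in the blood libraries and between 12864 and 19961 FPKM in the LSEC libraries. Gene by gene the KC mean was a median of 35.9% of the LSEC mean, from 5.70% to 71.3%, and the blood mean a median of 7.77%. Cdh5 (VE-cadherin) had the largest difference of the list, 4.57, from 400.1 and 467 FPKM in KC and 17.8 and 16.8 FPKM in blood. With all 20 groups of the series in a single fit, 12 of the 20 genes passed. Every LSEC gene of the list stood at 1.62 FPKM or more in both KC libraries, and the part of endothelial RNA in the comparison was not tested. For some of the genes below the LSEC mean is given beside the KC values.

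**Figure D2:**
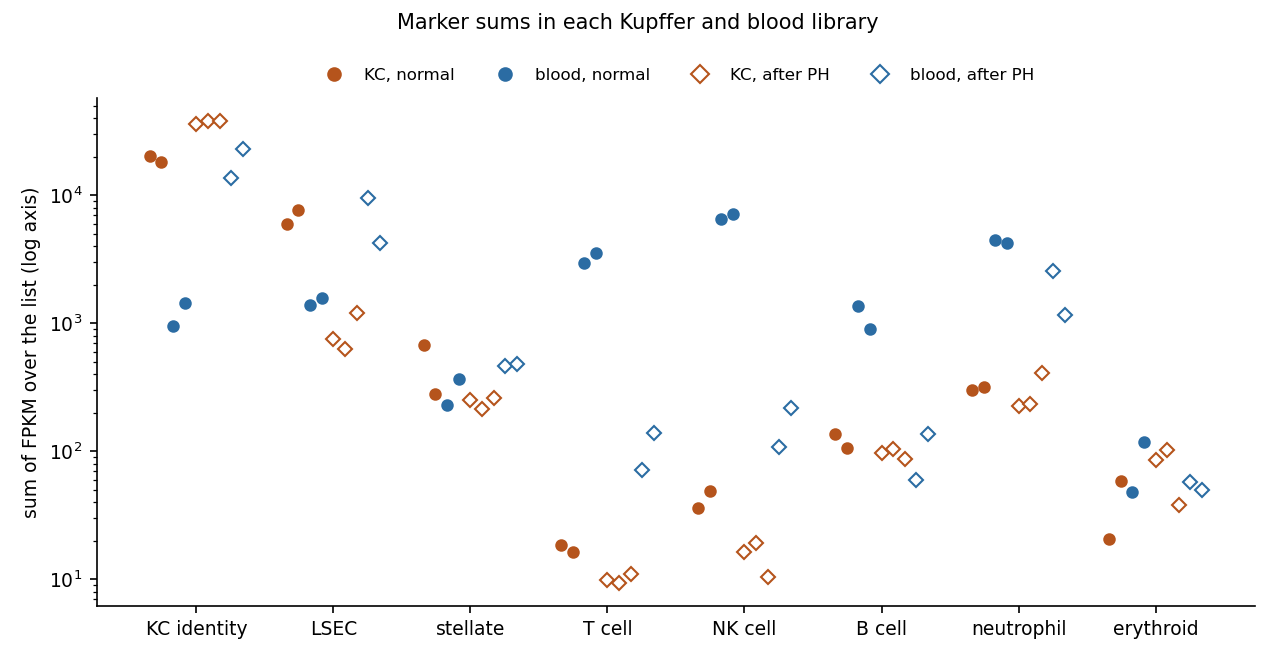
Sum of FPKM (log axis) over the members of 8 marker lists in each library of normal KC and blood (filled) and of PH KC and PH blood (open). The Kupffer and LSEC sums were higher in KC than in blood in normal liver, and the lymphocyte and neutrophil sums were higher in blood.

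Stellate cell genes gave no such pattern. Of 11 tested, 3 were higher in KC (Rgs5, Ecm1 and Hgf), against 27.4% of all genes tested, so this count lies near the background. There were 0 lower, against 47.5% of all genes tested, and the others did not pass. The stellate sum was 669 and 280.5 FPKM in KC and 230.2 and 364 FPKM in blood, against 25770.4 FPKM or more in both stellate cell libraries. Dcn (decorin, a matrix proteoglycan) was at 218 and 42 FPKM in KC and 77.1 and 139 FPKM in blood, so that KC library 1 stood highest and KC library 2 lowest, and it was higher in blood without KC library 1 (-1.28, limma adjusted p 0.045). Without KC library 1, 4 stellate genes were lower in KC and the median of the list went from 0.26 to -0.67, and without KC library 2, 6 were higher. Ecm1 did not pass without blood library 1, blood library 2 or KC library 1 (limma adjusted p 0.208, 0.109 and 0.0648), nor did Rgs5 without blood library 1 (0.0819). Of 10 genes of the duct list 5 were tested, and 3 of these were higher in blood, against 47.5% of all genes tested. This count of few genes lies near the background. Cdh1 (listed at 0 in both KC libraries) and Epcam were among the 3, and Spp1 and Krt19 did not pass. Epcam did not pass without either blood library (limma adjusted p 0.0637 and 0.0735), and Spp1 was higher in blood without KC library 2 (-2.88, limma adjusted p 0.0351).

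Among genes that define macrophages in general, 19 of 20 were higher in KC and 0 lower, with a median of 3.45. The 3 chains of C1q, which starts the classical complement pathway, were among the most abundant. C1qa was at 3769 and 3503 FPKM in KC and 79.3 and 99.4 FPKM in blood, C1qb at 3969 and 3766 FPKM against 184 and 265 FPKM, and C1qc at 3968 and 3428 FPKM against 164 and 249 FPKM. Csf1r, the receptor for the macrophage growth factor CSF1, was at 1612 and 1500.3 FPKM in KC and 198 and 217 FPKM in blood (difference 2.90, limma adjusted p 7.16e-05). Lyz2 (lysozyme) was at 5068 and 5671 FPKM in KC and 2674 and 2321 FPKM in blood, a difference of 1.11, and Ctss (cathepsin S) differed by 2.18. Tyrobp, the adaptor DAP12 that NK cells also use, was at 1789 and 1605 FPKM in KC and 2460.5 and 1729 FPKM in blood and did not pass (difference -0.28, limma adjusted p 0.264). After quantile normalization Tyrobp was higher in blood (difference -0.88, limma adjusted p 0.0108). The LSEC mean was above the KC mean for 2 of the 20 genes, Maf and Mrc1.

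Of 17 macrophage transcription factor genes tested, 14 were higher in KC and 3 were higher in blood, with a median of 3.89. Maf, a factor of resident macrophages, was at 253 and 286 FPKM in KC and 5.99 and 9.37 FPKM in blood, and at 297 FPKM in LSEC. Nr1h3, the oxysterol sensor LXR alpha, was at 278 and 218 FPKM in KC and 7.54 and 12.1 FPKM in blood (difference 4.55), and Spic at 115 and 88.5 FPKM against 3.92 and 5.04 FPKM. Cebpa was at 88.2 and 111 FPKM in KC and was listed at 0 in both blood libraries. It is abundant in hepatocytes, at a mean of 223 FPKM, so its zeros fall under the limit above. Spi1 (PU.1), needed by macrophages, neutrophils and B cells alike, differed by 1.37, from 279 and 267 FPKM in KC and 112 and 98.7 FPKM in blood. The 3 genes higher in blood were Irf8, Runx1 and Rbpj. Irf8, which drives dendritic cell and monocyte development, was at 89.3 and 86 FPKM in KC and 809 and 539 FPKM in blood, a difference of -2.90 (limma adjusted p 0.000232).

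The 10 largest differences towards KC, among genes under 10 FPKM in normal hepatocytes, ranged from 5.29 to 6.56. Fosb, a subunit of the AP-1 transcription factor, had the largest, 6.56 (SE 0.21, limma adjusted p 3.93e-05), from 164 and 115 FPKM in KC and 0.555 and 0.369 FPKM in blood. Cmklr1, the receptor for chemerin, was at 109 and 109 FPKM in KC and 0.484 and 0.395 FPKM in blood (difference 6.25). Sash1, a signalling scaffold, was at 91.5 and 83.5 FPKM in KC and 0.178 and 0.226 FPKM in blood (difference 6.20), and its LSEC mean was higher, at 103 FPKM. Rhob, a small GTPase, differed by 5.98 and the proteoglycan gene Sdc3 by 5.73, and their LSEC means were 186 and 98.9 FPKM. Siglec1 differed by 5.61, the neutrophil-attracting chemokine gene Cxcl2 by 5.38 and C1qa by 5.34. Chp2, a calcineurin-like protein, differed by 5.31 and Slc15a3, a peptide and histidine transporter of lysosomes, by 5.29. Fosb, Cmklr1 and Sash1 were under 1 FPKM in both blood libraries. Fosb was at 108 FPKM in LSEC and at 496 FPKM in the Thy1 sort, above its KC mean there, so it was no marker of KC among the normal populations.

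Receptors for uptake were higher in KC in 20 of 21 cases, with a median of 2.57. Cd163, the receptor for haemoglobin bound to haptoglobin, was at 438 and 466 FPKM in KC and 18.2 and 21.3 FPKM in blood (difference 4.45). Axl, which recognises dying cells through the bridging protein Gas6, was at 425 and 379 FPKM in KC and 28.4 and 36.6 FPKM in blood, and Cd68, a protein of late endosomes, at 744 and 575 FPKM against 236 and 154 FPKM. Itgb5, the beta chain of an integrin that binds vitronectin, had the largest difference of the list, 6.20, from 168 and 130.3 FPKM in KC and 0.656 and 1.47 FPKM in blood. The mannose receptor gene Mrc1 was at 682 and 791 FPKM in KC and 61.5 and 73.3 FPKM in blood, and its LSEC mean was 862 FPKM. Msr1, a scavenger receptor for modified lipoproteins, differed by 2.57, with an LSEC mean of 273 FPKM. Mfge8, a bridge between phosphatidylserine and integrins, was the member that did not pass, at 31.7 and 38.6 FPKM in KC and 34.6 and 35.4 FPKM in blood, with an LSEC mean of 124 FPKM. For 7 of the 21 genes the LSEC mean was above the KC mean.

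In the complement list, 14 of 19 tested genes were higher in KC and 4 were higher in blood, with a median of 2.46. Cfp (properdin, which stabilises the alternative pathway convertase) was at 1171 and 1062 FPKM in KC and 180.5 and 182 FPKM in blood, a difference of 2.62. C6, a component of the membrane attack complex, was at 379 and 356 FPKM in KC and 14.3 and 23.7 FPKM in blood. The genes higher in blood were complement receptors and a regulator: Itgax (CD11c, difference -3.70), Cr2 (from 0.0515 and 0.0402 FPKM in KC and 8.59 and 5.92 FPKM in blood), Itgam (CD11b, -0.76) and Cr1l (-0.70). Itgam was at 33.4 and 57.7 FPKM in KC and 73.5 and 76.4 FPKM in blood. It did not pass without blood library 1, blood library 2 or KC library 1 (limma adjusted p 0.242, 0.265 and 0.0657). The anaphylatoxin receptor gene C5ar1 did not pass (33.4 and 21.4 FPKM in KC, 32.9 and 30.7 FPKM in blood). Without KC library 1 it was higher in blood (difference -0.55, limma adjusted p 0.0246). C3 and Cfd were under the filter on low values. C3 was listed at 0 in both KC libraries and at 0 and 0.77 FPKM in blood. Its hepatocyte mean was 2682 FPKM, so its zeros fall under the limit given above for such transcripts.

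Iron and heme handling genes were higher in KC in 13 of 18 cases and higher in blood in 3, with a median of 1.61. Hmox1 (heme oxygenase 1, which breaks down heme) was at 892 and 737 FPKM in KC and 24.4 and 29 FPKM in blood, a difference of 4.88 (limma adjusted p 3.93e-05). The iron exporter gene Slc40a1 (ferroportin) was at 1540.3 and 1202 FPKM in KC and 142 and 205 FPKM in blood. Blvrb, a biliverdin reductase, differed by 3.01 and Ftl1, the ferritin light chain, by 1.83. The ferritin heavy chain gene Fth1 was at 2275 and 2050.1 FPKM in KC and 1751 and 1369 FPKM in blood and did not pass (difference 0.48, limma adjusted p 0.0521). It passed without blood library 1 (difference 0.66, limma adjusted p 0.0449). Ireb2 did not pass either. Slc11a2, Tfrc and Hp were higher in blood. Tfrc, the transferrin receptor, was at 26.9 and 27.5 FPKM in KC and 48 and 36.5 FPKM in blood (difference -0.60), and it did not pass without blood library 1, KC library 1 or KC library 2 (limma adjusted p 0.0639, 0.0679 and 0.0612). Hp (haptoglobin) was at 74.7 and 62.3 FPKM in blood and listed at 0 in both KC libraries, and its hepatocyte mean was 2619 FPKM. Slc11a2 did not pass without either blood library (limma adjusted p 0.0549 and 0.0707). Without blood library 1, 1 gene of the list was higher in blood.

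Of 24 lysosomal genes tested, 16 were higher in KC and 2 were higher in blood, with a median of 0.87. Lgmn (legumain, a lysosomal protease) was at 1558 and 1510.2 FPKM in KC and 113 and 135 FPKM in blood, a difference of 3.63. Ctsb and Ctsd (cathepsins B and D) differed by 1.72 and 0.79. The LSEC means of Lgmn, Ctsb and Ctsd were 399, 347 and 506 FPKM. Psap (prosaposin) was at 1897 and 1953 FPKM in KC and 1693 and 1003 FPKM in blood and did not pass (difference 0.56), with an LSEC mean of 744 FPKM. It passed without blood library 1 (difference 0.94, limma adjusted p 0.0216). The progranulin gene Grn did not pass (difference 0.76, limma adjusted p 0.0587), and it too passed without blood library 1 (difference 1.15, limma adjusted p 0.0413). Lamp1, a lysosomal membrane protein, had the largest difference of the list, 4.19, from 873 and 896 FPKM in KC and 28.1 and 79.4 FPKM in blood. The LSEC mean of Lamp1 was 487 FPKM. The genes higher in blood were Cd63 and Tfeb.

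Of 18 LXR targets and cholesterol genes, 9 were higher in KC and 7 were higher in blood, against 27.4% and 47.5% of all genes tested, with a median of 0.51. The genes higher in KC included lipid transport genes: Apoe was at 11625 and 11081 FPKM in KC and 787 and 923 FPKM in blood, the phospholipid transfer protein gene Pltp at 786 and 648 FPKM against 224 and 145 FPKM, and lipoprotein lipase (Lpl) at 282 and 346 FPKM against 11 and 13 FPKM. Rxra, the partner of LXR on DNA, was at 170.0 and 157 FPKM in KC and 3.13 and 2.6 FPKM in blood, a difference of 5.41. The cholesterol exporter gene Abca1 differed by 2.36. Srebf2, the regulator of cholesterol synthesis, was higher in blood, at 18.6 and 17.6 FPKM in KC and 81 and 55.2 FPKM in blood (difference -1.83). Srebf1, Lpcat3, Scd1 and Scd2 were also higher in blood, and Nr1h2 and Insig1 did not pass. Scd1, a fatty acid desaturase, was at 11.2 and 28.2 FPKM in blood and listed at 0 in both KC libraries, and its hepatocyte mean was 1351 FPKM. Scd2 differed by -1.34, by -0.87 without blood library 1, and did not pass without KC library 2 (limma adjusted p 0.0594). The LSEC mean was above the KC mean for 8 of the 18 genes, and Apoe is abundant in hepatocytes, at a mean of 20154 FPKM.

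Of 28 cytokine and chemokine genes, 17 were higher in KC, 6 were higher in blood and 5 did not pass, with a median of 1.89. The alarm cytokine gene Il1b was at 698 and 503 FPKM in KC and 166 and 151 FPKM in blood (difference 1.90), and Il1a at 256 and 216 FPKM against 29.4 and 35.4 FPKM, with an LSEC mean of 182 FPKM. Cxcl13, which attracts B cells, was at 170.0 and 279 FPKM in KC and 7.09 and 8.91 FPKM in blood (difference 4.61). Il10, an anti-inflammatory cytokine, was at 39.4 and 36.5 FPKM in KC and 0.374 and 1.09 FPKM in blood, a difference of 4.52, and Il6 differed by 3.65. Among the genes higher in blood were lymphocyte products: Ccl5 was at 8.57 and 14.3 FPKM in KC and 1522 and 1423 FPKM in blood (-6.93), Xcl1 at 0.364 and 0.511 FPKM against 190.2 and 218 FPKM (-7.16), and interferon gamma (Ifng) at 0.213 and 0.031 FPKM against 26.5 and 37.7 FPKM (-4.87). Il12a, Il2 and Ccl9 were the other genes higher in blood, and Il2 was listed at 0 in both KC libraries. Ccl9 differed by -2.21, by -1.23 without KC library 1, and did not pass without either blood library (limma adjusted p 0.209 and 0.196). Ccl6 was at 437 and 464 FPKM in KC and 403 and 521 FPKM in blood and did not pass, nor did Ccl4, Il12b, Csf1 and Osm. Il12b was higher in blood without KC library 1 (-1.21, limma adjusted p 0.0309) and Osm without KC library 2 (-1.99, limma adjusted p 0.00654).

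Pattern recognition genes were higher in KC in 17 of 23 cases and higher in blood in 4, with a median of 1.03. The lipopolysaccharide co-receptor gene Cd14 was at 237 and 236 FPKM in KC and 14.9 and 21 FPKM in blood, a difference of 3.67, and the receptor gene Tlr4 at 34.2 and 35.4 FPKM against 7.17 and 7.24 FPKM. Clec7a and Clec4n, the fungal glucan and mannan receptors dectin-1 and dectin-2, differed by 1.88 and 3.33. Myd88, the adaptor below most Toll-like receptors, was higher in blood, at 54.4 and 55.8 FPKM in KC and 114 and 91.8 FPKM in blood (-0.88), as was Pycard, the inflammasome adaptor (-1.28). Tlr5 and Clec4e were also higher in blood, and Tlr13 and Ticam1 did not pass. Clec4e did not pass without either blood library (limma adjusted p 0.0739 and 0.0675), nor did Tlr5 without blood library 1 or KC library 1 (0.113 and 0.0906). Ticam1 was higher in KC without blood library 1 (0.71, limma adjusted p 0.0448), and 2 genes of the list were then higher in blood.

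Immediate early genes, which respond within minutes to growth factors, stress and also to tissue digestion, were higher in KC in 15 of 20 cases and higher in blood in 1, with a median of 2.01. Fos was at 793 and 1018 FPKM in KC and 48.7 and 72.7 FPKM in blood, and at 442 FPKM in LSEC. Jun was at 364 and 500.2 FPKM in KC and 17 and 38.7 FPKM in blood (difference 4.0), and Dusp1, a phosphatase that limits MAP kinase signals, at 823 and 985 FPKM against 127 and 359 FPKM (difference 2.07). Dusp1 did not pass without KC library 2 (limma adjusted p 0.0639), and its difference was 1.32 without blood library 1. Zfp36, which destabilises cytokine mRNA, differed by 1.71. Junb differed by 1.34 and did not pass without blood library 1, blood library 2 or KC library 2 (limma adjusted p 0.144, 0.0645 and 0.0524). The exception was Btg2, at 191 and 169 FPKM in KC and 255 and 258 FPKM in blood (-0.51), which did not pass without blood library 1, blood library 2 or KC library 2 (limma adjusted p 0.0732, 0.075 and 0.0686). Klf6 was at 121 and 120.1 FPKM in KC and 107 and 139 FPKM in blood and did not pass, nor did Egr3, Nr4a2 and Nr4a3. The sum over the list was 4806 and 5660.3 FPKM in KC, 1107 and 1609 FPKM in blood, 1703 to 3357 FPKM in LSEC and 8139 to 10287 FPKM in the Thy1 sort. The time and temperature of each cell isolation are not given in the labels, so their part was not tested.

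**Figure D3:**
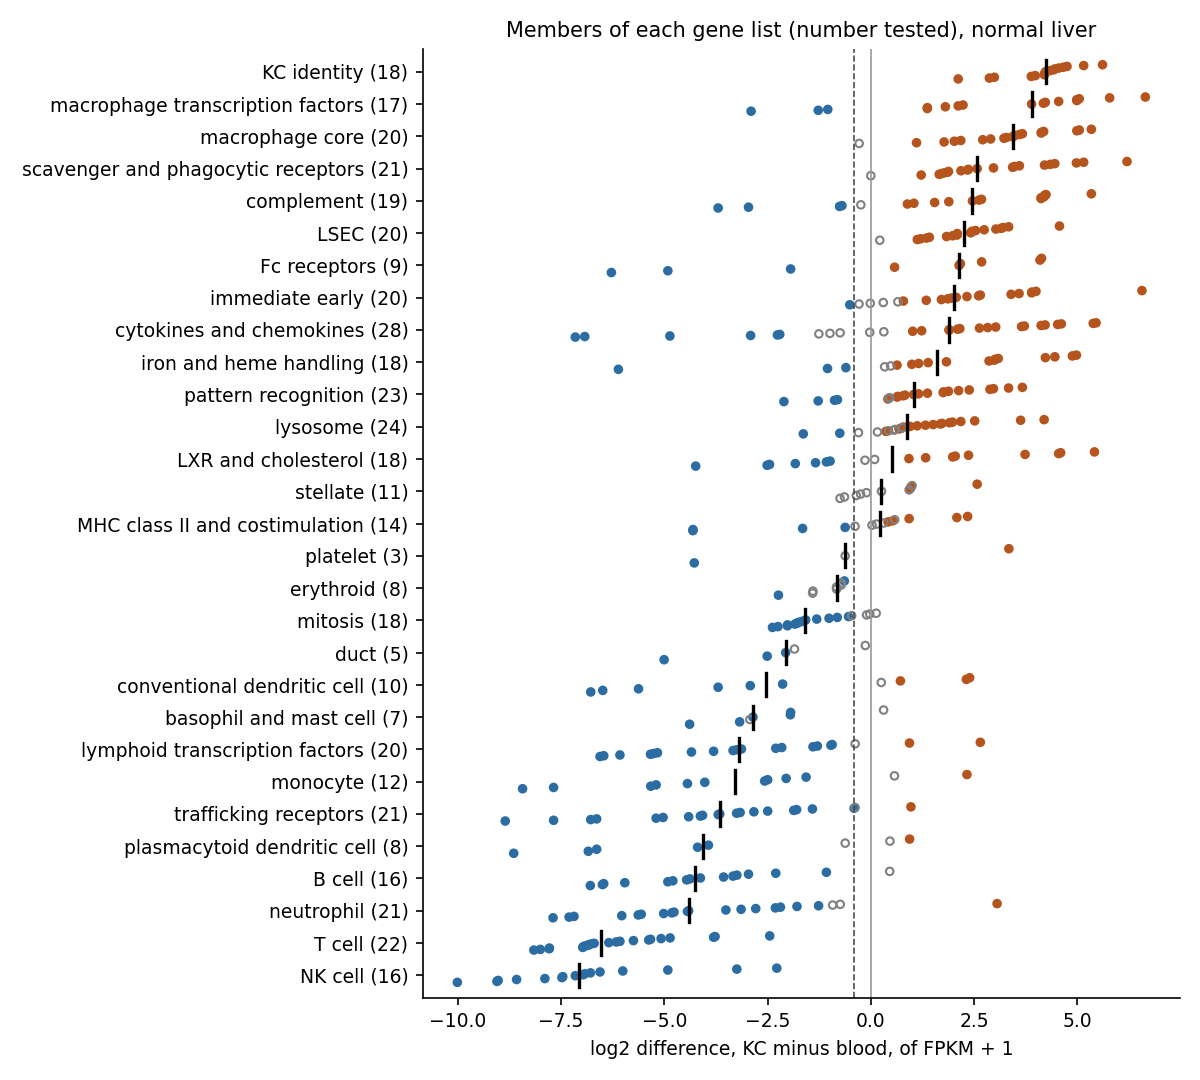
Log2 difference (KC minus blood, log2 of FPKM + 1) of each tested member of 29 gene lists in normal liver, with filled points for an adjusted p under 0.05 (orange higher in KC, blue higher in blood), open points for the others and a bar at the list's median. The dashed line is the median of all genes, -0.40; the Kupffer identity list has the highest median, 4.23, and the NK cell list the lowest, -7.06.

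Of 14 genes for MHC class II and costimulation, 5 were higher in KC, 4 were higher in blood and 5 did not pass, with a median of 0.23. Over all genes tested 27.4% were higher in KC and 47.5% were higher in blood. The count higher in KC lies near the background. Cd74, the invariant chain that escorts class II molecules, was at 4072 and 4745 FPKM in KC and 5244 and 3544 FPKM in blood, a difference of 0.03 (limma adjusted p 0.92). H2-Aa was at 1399 and 1950.0 FPKM in KC and 1288 and 952 FPKM in blood, and H2-Ab1 at 1041 and 1680.5 FPKM against 2028 and 1467 FPKM. The libraries of the sorts were interleaved for Cd74 and H2-Ab1, and none of the 3 genes passed. H2-Ab1 was higher in blood after quantile normalization (difference -1.01, limma adjusted p 0.00988). H2-Eb1 was at 525 and 819 FPKM in KC and 413 and 288 FPKM in blood, a difference of 0.93 that did not pass without blood library 1, blood library 2 or KC library 2 (limma adjusted p 0.0993, 0.236 and 0.125). H2-DMa and H2-DMb1, which load peptides, did not pass, and H2-DMa was higher in KC without blood library 1 (0.62, limma adjusted p 0.0318). The inhibitors of that loading were higher in blood: H2-Oa was at 1.02 and 1.75 FPKM in KC and 56 and 37.2 FPKM in blood, and H2-Ob at 2.35 and 2.89 FPKM against 77.6 and 63.9 FPKM, both with a difference of -4.31. Of the costimulatory genes, Cd86 was higher in KC at 130.2 and 117 FPKM against 21.3 and 26 FPKM in blood (2.34), and Cd80 differed by 2.08. Cd40 and Cd274 (PD-L1) were also higher in KC, by 0.53 and 0.42, and Ciita, the activator of class II genes, and Icosl were higher in blood, with differences of -0.62 and -1.65. Cd40 did not pass without blood library 1, blood library 2 or KC library 2 (limma adjusted p 0.0674, 0.12 and 0.0783), and Cd274 and Ciita did not pass without blood library 1, KC library 1 or KC library 2 (0.0894, 0.0694 and 0.0678, and 0.119, 0.141 and 0.107). The difference of Ciita was -0.33 without blood library 1. Without blood library 1, blood library 2 or KC library 2, the number of genes higher in KC was 3, 3 and 2, so the count of 5 rests on single libraries.

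**Figure D4:**
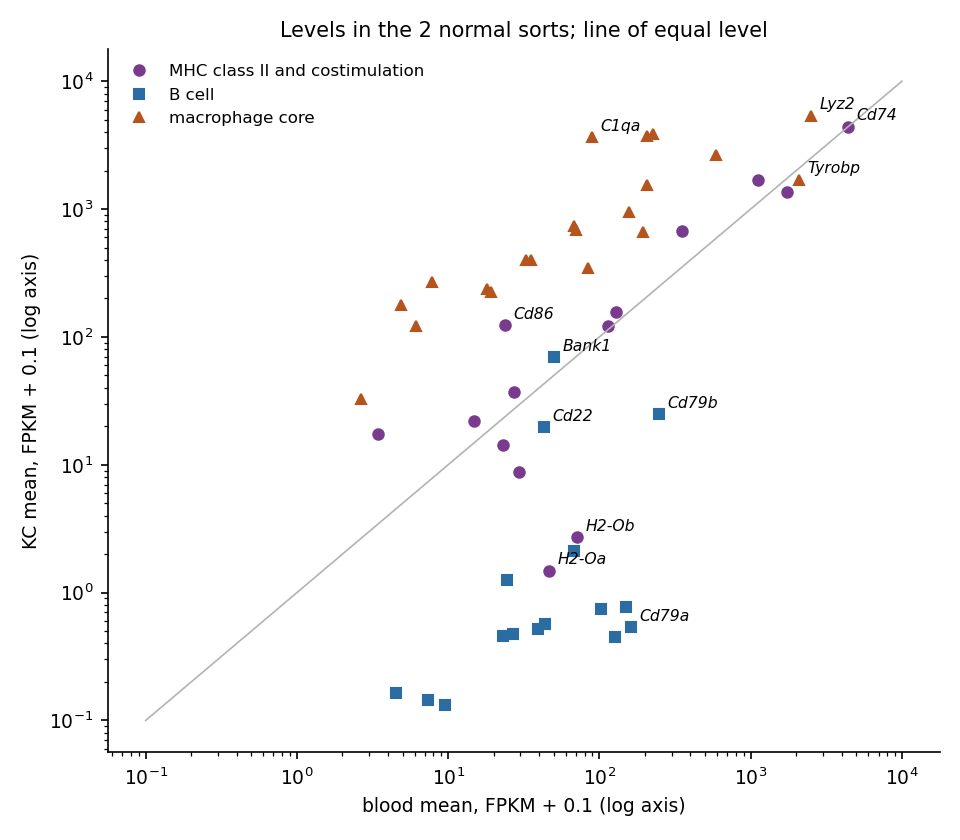
Mean FPKM + 0.1 of 2 libraries in KC against blood (log axes) for members of the class II, B cell and macrophage core lists, with the line of equal level. Cd74 and Tyrobp lie near the line, H2-Oa and H2-Ob lie below it with the B cell genes, and Bank1 lies above it.

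Fc receptor genes were higher in KC in 6 of 9 cases, with a median of 2.14. Fcgr2b, the inhibitory IgG receptor, was at 886 and 1250.5 FPKM in KC and 161 and 166 FPKM in blood, but its LSEC mean was 1173 FPKM. The activating IgG receptor gene Fcgr4 was at 375 and 368 FPKM in KC and 17.3 and 25 FPKM in blood, with an LSEC mean of 2.68 FPKM. Fcgr1, the high affinity IgG receptor, was at 118 and 124 FPKM in KC and 5.25 and 6.74 FPKM in blood, with an LSEC mean of 0.682 FPKM. Their common chain Fcer1g differed by 0.58 and did not pass without blood library 2, KC library 1 or KC library 2 (limma adjusted p 0.0755, 0.114 and 0.0702). The genes higher in blood were the IgM receptor Fcmr (0.796 and 0.361 FPKM in KC, 153 and 94.8 FPKM in blood), the low affinity IgE receptor Fcer2a and the mast cell and basophil receptor Fcer1a, which was listed at 0 in both KC libraries.

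On the side of blood, the 10 largest differences ranged from -8.43 to -10.01. Nkg7, a granule membrane protein of cytotoxic lymphocytes, was at 1266 and 1394 FPKM in blood and at 0.66 and 0 FPKM in KC, a difference of -10.01 (SE 0.25, limma adjusted p 2.7e-05). The granzyme gene Gzma was at 940.0 and 1004 FPKM in blood and 0.105 and 2.04 FPKM in KC (-9.05), and Il2rb, the beta chain of the receptors for IL-2 and IL-15, at 764 and 928 FPKM against 0.759 and 0.492 FPKM (-9.02). Gimap3, a GTPase of lymphocyte survival, differed by -8.94, the chemokine receptor gene Cxcr6 by -8.85, the T and NK cell gene Cd7 by -8.62 and Gzmb by -8.58. The other genes were Jchain, the joining chain of IgA and IgM in plasma cells (-8.75), Siglech of the plasmacytoid dendritic cell list (-8.65) and Ly6c2 of the monocyte list (-8.43). Which cells of the blood sort carried these transcripts was not tested. Blood library 1 was the higher for Jchain, at 679.6 and 414 FPKM, and for Siglech, at 778 and 437 FPKM. All 10 were under 3 FPKM in both KC libraries.

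All 22 genes of the T cell list were higher in blood, against 47.5% of all genes tested, with a median of -6.52. Lck, the kinase that starts T cell receptor signalling, was at 433 and 555 FPKM in blood and 1.67 and 0.867 FPKM in KC, and Cd3g at 459 and 503 FPKM against 0.57 and 1.25 FPKM. Cd2, Lat and Cd3d differed by -7.79, -6.93 and -6.96. Cd8b1 was at 123 and 109.8 FPKM in blood and 0.0638 and 0 FPKM in KC. Cd4 was at 104 and 107 FPKM in blood and at 7.16 and 6.42 FPKM in KC, which left it well above the other T cell genes in KC, and Cd247 had the smallest difference of the list, -2.45. The sum over the list was 18.7 and 16.3 FPKM in the KC libraries and 2962 and 3555 FPKM in the blood libraries. Cd5 and Zap70 were listed at 0 in both KC libraries.

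All 16 genes of the NK cell list were higher in blood as well, with a median of -7.06. The sum was 35.8 and 49.1 FPKM in KC and 6552 and 7068 FPKM in blood. Klrd1 (CD94, a receptor chain for nonclassical MHC) was at 311 and 260.3 FPKM in blood and 0.445 and 0 FPKM in KC, and Ncr1 (NKp46) at 195 and 212 FPKM against 0 and 0.31 FPKM. Klrk1 (NKG2D, a receptor for stress ligands) had the smallest difference, -2.28, with 22.7 and 30.2 FPKM left in KC against 121 and 141 FPKM in blood. Klrg1 and Eomes were listed at 0 in both KC libraries. Several of these genes, among them Ccl5 and Xcl1, are made by activated T cells too, so the lists do not separate NK from T cells.

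Of 16 B cell genes tested, 15 were higher in blood and 0 were higher in KC, with a median of -4.25. Cd79a, a signalling chain of the B cell receptor, was at 198 and 126 FPKM in blood and 0.519 and 0.35 FPKM in KC. Ms4a1 (CD20) was at 119.6 and 85 FPKM in blood and 0.489 and 0.806 FPKM in KC. The KC libraries, under 1 FPKM for both of these defining genes, nevertheless held others of the list. Bank1, a B cell scaffold protein, was at 78.7 and 60.1 FPKM in KC and 56.4 and 44.1 FPKM in blood, and did not pass (difference 0.46, limma adjusted p 0.0786). It was higher in KC without KC library 2 (difference 0.65, limma adjusted p 0.0462). Cd79b, the partner of Cd79a, was at 27.8 and 22.1 FPKM in KC, and the inhibitory lectin gene Cd22 at 21.9 and 17.1 FPKM. Cd22 was at 51.5 and 34.1 FPKM in blood, a difference of -1.08 that did not pass without blood library 1 (limma adjusted p 0.0786). Ighm and Ighd had no row of that name in the table.

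Neutrophil genes were higher in blood in 18 of 21 cases, with a median of -4.41. S100a8, a subunit of calprotectin, was at 1909 and 1568 FPKM in blood and 6.17 and 18.7 FPKM in KC, and its partner S100a9 at 1355 and 1182 FPKM against 10.6 and 31.4 FPKM. Retnlg was at 435 and 546 FPKM in blood and 1.58 and 1.16 FPKM in KC, a difference of -7.69. The protease gene Mmp9 differed by -3.51. Elane, Mpo and Ctsg, made by the precursors of neutrophils in marrow, were listed at 0 in both KC libraries and at 3.41 to 32.5 FPKM in blood. The exception was Fpr1, a receptor for bacterial formyl peptides, which was higher in KC at 227 and 204 FPKM against 23.2 and 27 FPKM in blood (3.06, limma adjusted p 7.11e-05). Padi4 and Prtn3 did not pass, and Prtn3 was higher in blood without KC library 2 (-1.17, limma adjusted p 0.0106). Padi4 was at 3.09 and 19.1 FPKM in KC and 14.3 and 18.3 FPKM in blood, so that the KC libraries lay on both sides of the blood libraries, and without KC library 2 it was higher in blood (difference -2.07, limma adjusted p 0.00323).

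Of 12 monocyte genes, 10 were higher in blood, with a median of -3.30. The monocyte chemokine receptor gene Ccr2 was at 226 and 208 FPKM in blood and 2.73 and 8.44 FPKM in KC (-5.20). Plac8 was at 697 and 477 FPKM in blood and 157 and 239 FPKM in KC, a difference of -1.57 that did not pass without blood library 1 (limma adjusted p 0.0786). Nr4a1, a factor of patrolling monocytes that is also an immediate early gene, was higher in KC, by 2.33. Fn1 (fibronectin) did not pass, at 34.2 and 267 FPKM in KC and 74.3 and 55.7 FPKM in blood, and KC library 2 stood apart. Without KC library 1 it was higher in KC, by 2.04 (limma adjusted p 0.00342), and without KC library 2 it was higher in blood (difference -0.89, limma adjusted p 0.026). Fn1 is abundant in hepatocytes, at a mean of 247 FPKM.

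In the conventional dendritic cell list, 6 of 10 genes were higher in blood and 3 were higher in KC, with a median of -2.53. Over all genes tested these shares were 47.5% and 27.4%, so the counts lie near the background. Ccr7, which guides cells to lymph nodes, differed by -6.78, the lectin gene Cd209a by -6.49 and the growth factor receptor gene Flt3 by -5.62. Batf3, a transcription factor of cross-presenting dendritic cells, was higher in KC at 55.8 and 42.4 FPKM against 9.0 and 7.97 FPKM in blood, and its LSEC mean was 1.27 FPKM. Fscn1 and Zbtb46 were higher in KC too, and their LSEC means of 107 and 75.7 FPKM were above those in KC. Zbtb46 did not pass without blood library 1 or KC library 1 (limma adjusted p 0.0765 and 0.051). Clec9a did not pass, at 24.2 and 10.9 FPKM in KC and 16.3 and 11.2 FPKM in blood, with an LSEC mean of 28.7 FPKM. In the plasmacytoid dendritic cell list, 5 of 8 genes were higher in blood, against 47.5% of all genes tested, with a median of -4.06. Siglech was at 778 and 437 FPKM in blood and 0.264 and 0.681 FPKM in KC, and Ccr9 at 139 and 87 FPKM against 0.137 and 0.0918 FPKM. Irf7, the interferon regulator, was higher in KC (0.94), and Bst2 and Tcf4 did not pass. Tcf4 was higher in blood without blood library 2 (-0.94, limma adjusted p 0.0205). Bst2 was at 385 and 458 FPKM in KC and 391 and 237 FPKM in blood, and it was higher in KC without blood library 1 (difference 0.82, limma adjusted p 0.0495).

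Among 7 basophil and mast cell genes tested, 5 were higher in blood, against 47.5% of all genes tested. The mast cell protease gene Cma1, among the 5, was at 23.7 and 16.7 FPKM in blood and listed at 0 in both KC libraries. Of the 8 genes of the list, 5 were listed at 0 in both KC libraries. Such a gene was tested only if both blood libraries reached 1 FPKM, so the filter fixes part of this count. Prss34, a basophil protease, was at 1.12 and 26.3 FPKM in blood and listed at 0 in KC. It did not pass (limma adjusted p 0.0728), and Gata2 did not pass either. Prss34 passed on leaving out either blood library (limma adjusted p 0.016 and 0.0265). Haemoglobin genes stood at 5.39 and 18.7 FPKM in KC and 9.75 and 30.7 FPKM in blood for Hbb-b1, and at 0.819 and 3.82 FPKM and 3.85 and 11.8 FPKM for Hba-a1. In both sorts library 2 was the higher, and values of the near-identical haemoglobin copies are uncertain because the treatment of shared reads is not recorded. Of the erythroid list, Gata1 was listed at 0 in both KC libraries. Of 8 erythroid genes tested, 2 (Gata1 and Bpgm) were higher in blood, below the share of 47.5% over all genes tested. Without KC library 2 there were 4, Hba-a1 among them (-2.11, limma adjusted p 0.0448), and without either blood library 1, since Bpgm then did not pass (limma adjusted p 0.0737 and 0.0792). Of 12 platelet genes 3 passed the filter, and Pf4, a chemokine of platelets that Kupffer cells also make, was higher in KC at 60.2 and 92.1 FPKM against 5.54 and 7.47 FPKM, while the receptor gene F2rl2 was higher in blood and Itga2b did not pass. Itga2b was higher in blood without KC library 1 (-0.85, limma adjusted p 0.0432).

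Of 20 transcription factor genes of lymphocytes tested, 17 were higher in blood and 2 were higher in KC, with a median of -3.19. Ets1 was at 389.9 and 531 FPKM in blood and 93.2 and 109.9 FPKM in KC, with an LSEC mean of 249 FPKM. Id2, needed for NK cell development, was at 885 and 879.7 FPKM in blood and 379.5 and 339.6 FPKM in KC (-1.30), while its relative Id3 was higher in KC. Spib, a factor of B cells and plasmacytoid dendritic cells, differed by -6.47, Tbx21 (T-bet, the factor of type 1 lymphocytes) by -6.56 and Ikzf1 (Ikaros) by -0.97. Klf2 and Foxo1, both also expressed by LSEC at means of 171 and 42.9 FPKM, were the genes higher in KC. Klf2 was at 226 and 335 FPKM in KC and 26.9 and 68.5 FPKM in blood. Foxo1 did not pass without blood library 1, KC library 1 or KC library 2 (limma adjusted p 0.0743, 0.0645 and 0.103), which left 1 gene higher in KC. Bach2 did not pass.

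Receptors for trafficking were higher in blood in 19 of 21 cases, with a median of -3.66. Selplg, the ligand that leukocytes offer to selectins, was at 623 and 596 FPKM in blood and 67.4 and 66.7 FPKM in KC (-3.17), and Itgb7, the integrin chain of gut homing, at 402 and 367 FPKM against 16.3 and 29.3 FPKM (-4.07). The interferon-induced chemokine receptor gene Cxcr3 differed by -5.03. Itgal (the alpha chain of LFA-1) was at 309 and 301 FPKM in blood and 242 and 219 FPKM in KC, a difference of -0.41 that did not pass without any 1 of the 4 libraries (limma adjusted p 0.0527 to 0.129). Cxcr4 did not pass.

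Genes of mitosis were higher in blood in 14 of 18 cases, with a median of -1.59. Top2a, which untangles chromosomes, was at 33.3 and 35.6 FPKM in blood and 10.1 and 10.0 FPKM in KC (-1.68), and Birc5 (survivin) at 37.1 and 28.6 FPKM against 7.8 and 10.3 FPKM. Mki67, Cdk1, Kif23 and Cenpe did not pass, with Mki67 at 11.1 and 10.2 FPKM in KC and 8.86 and 10.5 FPKM in blood. The sum over the list was 107 and 93.5 FPKM in KC and 282 and 268 FPKM in blood. Cenpe was higher in blood without KC library 1 (-0.57, limma adjusted p 0.0469). With all 20 groups in a single fit, 4 of the 18 genes were higher in blood.

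With all 20 groups in a single fit, which shares the spread of every population, 25 of the genes named above no longer passed. They included Lyz2 (limma adjusted p 0.543), Ctss (0.123), Spi1 (0.135), Cd68 (0.128) and Il1b (0.0638) of the macrophage genes and Clec4g (0.152) and Kdr (0.0546) of the LSEC genes. The others were Cd40, Cd274, Ciita, Hgf, Irf7, Fcer1g, H2-Eb1, Ecm1, Birc5, Top2a, Bpgm, Btg2, Cr1l, Itgal, Itgam, Plac8, Tfeb and Tfrc, and Il12b, Osm and Prss34 passed in that fit. After quantile normalization 8 named genes no longer passed: Ctsd (difference 0.22), Fcer1g (0.11), Ciita (-0.35), Bpgm, Ccl9, Itgam, Tfrc and Tlr5, and the differences of Lyz2, Cr1l and Tfeb went to 0.65, -0.42 and -0.46. It made 9 named genes pass: Tyrobp and H2-Ab1 towards blood and Bank1, Csf1, Gata2, Ireb2, Nr4a2, Ticam1 and Tlr13 towards KC. Without a filter on low values, Ccl9, Ciita, Ecm1, Foxo1, H2-Eb1, Itgam and Tlr5 no longer passed.

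The 2 normal sorts were then placed among all 10 normal populations by the population with the highest mean, as a description without a test. Over all 12817 genes tested, blood had the highest mean for 34.5%, KC for 8.48% and LSEC for 6.87%. Of the 2495 genes (19.5% of those tested) higher in KC by at least 1 on the log2 scale, 609 (24.4%) were highest in KC and 420 (16.8%) in LSEC. Of the 3691 genes (28.8%) higher in blood by at least 1, 2683 (72.7%) were highest in blood and 9 (0.244%) in LSEC. A gene higher in KC cannot be highest in blood, nor the reverse, so the choice of the genes fixes part of these shares. Zeros of transcripts abundant in hepatocytes can lower a population in this count.

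The difference between the sorts was then compared with that after PH, in a single model of the 9 libraries with an interaction term. Of 13198 genes tested, 7907 (59.9%) had another difference after PH, 4632 (35.1%) with a higher value of KC minus blood and 3275 (24.8%) with a lower one. After PH itself, 206 of 12010 genes (1.72%) were higher in KC and 1637 (13.6%) were higher in the libraries labelled PH blood, with a median of -0.03. The libraries labelled PH blood held Kupffer genes, neutrophil genes and low levels of lymphocyte genes. Clec4f was at 1723 and 2680.2 FPKM there and 4294, 4549 and 5143 FPKM in PH KC, and the Kupffer identity sum was 13680.1 and 22787 FPKM in the libraries labelled PH blood against 954 and 1431 FPKM in normal blood. Cd3e was at 4.1 and 8.68 FPKM there, against 294 and 327 FPKM in normal blood. The neutrophil sum was 2549 and 1162 FPKM in the libraries labelled PH blood and between 224 and 407 FPKM in PH KC, against 4495 and 4217 FPKM in normal blood. Of 21 neutrophil genes tested in normal liver, 10 passed the filter after PH, and Ngp did not. Of the 10 tested, 9 were higher in the libraries labelled PH blood and 1 in PH KC, with a median of -2.84. A gene under 1 FPKM in PH KC was tested only if both libraries labelled PH blood reached 1 FPKM. The filter thus fixes part of this count. S100a8 was at 909 and 365 FPKM in the libraries labelled PH blood. The difference was smaller after PH for all 18 Kupffer identity genes, where the median went from 4.23 to 1.04, and it was higher, that is less in favour of blood, for all 22 T cell genes and all 16 NK cell genes. Of the 18 identity genes 8 were still higher in PH KC, against 1.72% of all genes tested after PH.

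All 20 LSEC genes had a lower difference after PH, against 24.8% of all genes tested. Of these 20 genes, 19 were higher in the libraries labelled PH blood than in PH KC, against 13.6% of all genes tested after PH. The median of the 20 genes was -3.66. Their sum was 9450 and 4250.01 FPKM in the libraries labelled PH blood and between 633 and 1194 FPKM in PH KC, against 5951 and 7712 FPKM in normal KC. Clec4g was at 143, 127 and 237 FPKM in the 3 PH KC libraries and 2930.1 and 1087 FPKM in the libraries labelled PH blood. The member whose PH difference did not pass was Cdh5, at 253, 221 and 384 FPKM in PH KC and 472 and 351 FPKM in the libraries labelled PH blood. Over the list the PH KC mean was a median of 2.67% of the normal LSEC mean, and Cdh5 had the highest share, 47.1%. Of 20 immediate early genes, 16 had a lower difference after PH, against 24.8% of all genes tested. There were 0 with a higher difference, against 35.1% of all genes tested. The immediate early sum in PH KC was 595 to 1066 FPKM. Sorting composition and PH cannot be told apart in this interaction.

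**Figure D5:**
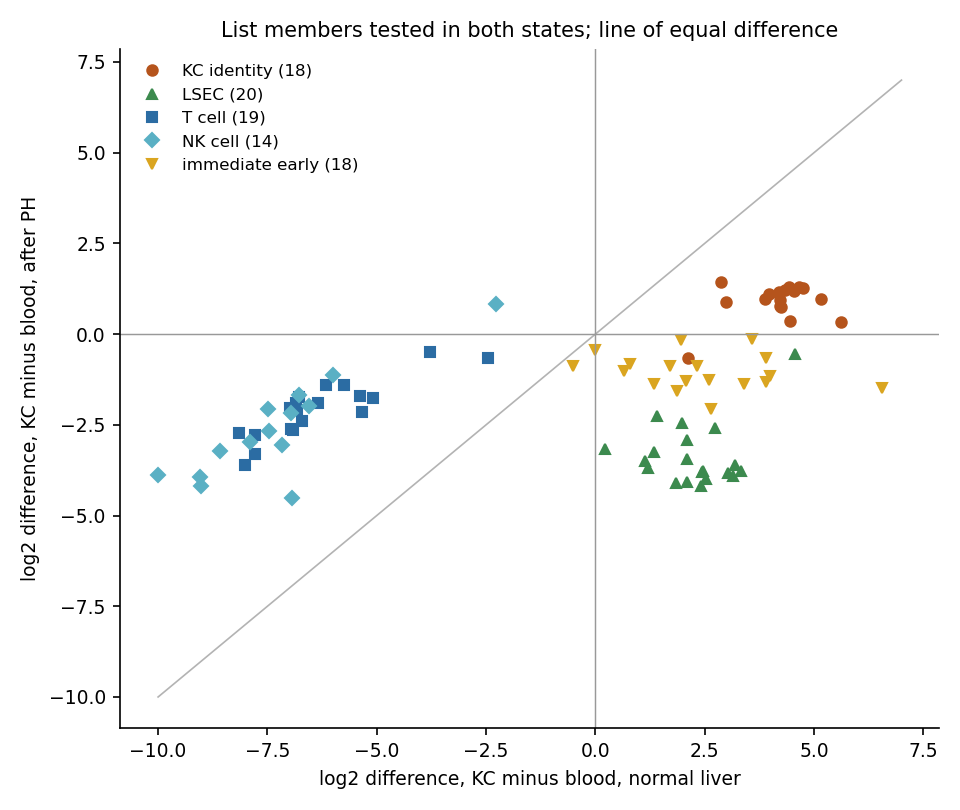
Log2 difference of KC minus blood in normal liver (x axis) and after PH (y axis) for members of 5 lists tested in both, with the line of equal difference. The Kupffer identity genes lie nearer 0 after PH (median 1.04 against 4.23), the T and NK cell genes lie above the line, and the LSEC genes lie below 0.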

How the data were processed

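Expression was read from a single table of FPKM that the authors deposited, with 1 column for each library. Per the submitters' processing notes, CASAVA 1.8.2, Bowtie 1.0.0 and the mouse build mm9 were used. Their roles, the counting step, the strand setting and the treatment of reads shared by near-identical genes are not given in the sources used here, so values of families such as haemoglobins, Ly6, H2, Fcgr, Klr and mast cell proteases are uncertain. FPKM values do not give the read counts. The smallest step between low values, for a transcript of 1 kb, was about 0.0827 and 0.0373 FPKM in the KC libraries and 0.0217 and 0.0223 FPKM in the blood libraries, so the blood libraries were the deeper ones.

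Where a symbol had several rows, the most abundant was used. A gene entered the test when 2 or more of the compared libraries reached 1 FPKM. Values were log2-transformed after adding 1 FPKM and fitted with limma (version 3.58.1, R 4.3.3) with a trended and robust variance, two-sided, and p-values were adjusted by Benjamini-Hochberg over all genes tested, with a threshold of 0.05. A second model over 9 libraries held the interaction of sort and PH. Groups came from the titles. The fit was also run on simulated data in which few genes differed, each above the filter in every library. In these data most genes differed, so that run does not check the counts given here. Figures used Python 3.11.15 and matplotlib 3.10.9.

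The genes named are the markers, the 10 largest differences in each direction among genes past the threshold, without overlap and under 10 FPKM in normal hepatocytes, the 3 largest interactions in each direction, and up to 6 abundant members of each of 30 lists. For the interaction, no overlap meant that every PH difference between libraries lay on 1 side of every normal one, a reading set after a first look at the values. Other genes named were chosen after their values were seen. The comparison, its markers and the lists were chosen with earlier results of these data known, and some lists share genes. Some members of the lists are counted but not reported here by name. The closing section gives the alternatives. Promoter sequences are RefSeq's, on GRCm38.p6.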

Additional observations from a re-analysis of the deposited data

Results flagged for a closer look

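The difference between KC and blood was not the same in normal liver and after PH, by a test of the interaction itself, for 7907 of 13198 genes (limma, adjusted p under 0.05). Towards a higher value of KC minus blood after PH, the largest changes on the log2 scale were those of Ngp, the neutrophil granule gene, with 6.29 (SE 0.56, limma adjusted p 9.6e-05), the chemokine receptor gene Cxcr6 with 6.19 (SE 0.45) and the cytotoxic granule gene Nkg7 with 6.12 (SE 0.54). Ngp was at 213 and 277 FPKM in normal blood and at 1.68 and 0.642 FPKM in the libraries labelled PH blood. The sum over the neutrophil list was 2549 and 1162 FPKM in those libraries. It was 224 to 407 FPKM in PH KC and 4495 and 4217 FPKM in normal blood. Of its 21 members, 10 passed the filter after PH, and Ngp did not. Of the 10 tested, 9 were higher in the libraries labelled PH blood than in PH KC (median -2.84), against 13.6% of all genes tested. The filter fixes part of that count. Nkg7 was at 1266 and 1394 FPKM in normal blood and at 10.8 and 27.4 FPKM in the libraries labelled PH blood.

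Towards a lower value, the largest changes were those of Hspg2 (perlecan, a proteoglycan of basement membranes) with -9.20 (SE 0.81, limma adjusted p 9.43e-05), Cxcl2 with -8.55 (SE 1.06) and Shank3, a scaffold protein, with -8.31 (SE 0.58). Hspg2 was at 75.5 and 103 FPKM in normal KC and 2.1 and 1.57 FPKM in normal blood, and at 3.47, 1.2 and 7.25 FPKM in PH KC and 121 and 52.3 FPKM in the libraries labelled PH blood. Its mean in normal LSEC was 271 FPKM, and that of Shank3 was 103 FPKM. Cxcl2 was at 161 and 132 FPKM in normal KC and at 4.31, 3.9 and 30.2 FPKM in PH KC, against 89 and 77.1 FPKM in the libraries labelled PH blood. Whether the makeup of the libraries labelled PH blood moves these values was not tested.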

How the results depend on the processing

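The direction of every marker and of the 20 genes with the largest differences in normal liver held, with an adjusted p under 0.05, under every alternative that tested them. The 233 genes named for the normal comparison gave 2976 values under alternatives: 2782 kept direction and side of the threshold, 105 no longer passed, 53 newly passed and 36 changed sign, and the changes of sign were in genes that had not passed. Limited to genes under 10 FPKM in hepatocytes, with fewer genes tested (8511 and 8847), 6340 genes differed, 3894 of them higher in blood, and 5185 had an interaction, 2823 of them towards a higher value. Leaving out 1 library gave 6823 to 9224 genes, 2614 to 3365 higher in KC and 4209 to 5983 higher in blood, and 6395 to 8982 interactions, 3572 to 5574 towards a higher value and 2823 to 3408 towards a lower one. A lone library left in a group is then assumed to vary like the other groups. Of the calls, 36.6% were higher in KC, and 45.3% after quantile normalization. With all 20 groups in a single fit, the genes higher in KC went from 5 to 2 for class II and costimulation and from 3 to 1 for stellate cells, and those higher in blood from 4 to 2 for complement and from 2 to 1 for the lysosome. After quantile normalization the differences of C5ar1 (0.071), Cd74 (-0.42), Cdk1 (0.19), Dcn (0.069), Kif23 (0.16), Klf6 (0.16), Krt19 (0.18), Mfge8 (0.30), Nr1h2 (0.14) and Nr4a3 (0.056) changed sign, and that of Cd74 did with upper-quartile scaling (-0.0064). The ranges on leaving out 1 library crossed 0 for C5ar1 (-0.55 to 0.068), Ccl6 (-0.21 to 0.16), Cd74 (-0.25 to 0.31), Cdk1 (-0.32 to 0.26), Clec9a (-0.29 to 0.79), Dcn (-1.28 to 1.07), Fn1 (-0.89 to 2.04), H2-DMb1 (-0.21 to 0.48), Hbb-b1 (-1.53 to 0.093), Insig1 (-0.41 to 0.60), Kif23 (-0.33 to 0.12), Klf6 (-0.20 to 0.17), Krt19 (-0.66 to 0.39), Mfge8 (-0.14 to 0.14), Padi4 (-2.07 to 0.22), Wnt9b (-0.064 to 0.50) and the medians of the class II (-0.10 to 0.40) and stellate lists (-0.67 to 1.07). The cause was not tested. Read counts are not given, so no limit is set on values of 0. The step between low values, for a transcript of 1 kb, was coarser in KC libraries 1 and 2 (0.0827 and 0.0373 FPKM). It was 0.0217 and 0.0223 FPKM in the blood libraries.

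KC and blood libraries share the numbers 1 and 2. The labels do not say whether a shared number marks a shared mouse or sort day, so the numbers were not taken to pair them. Deviations of same-numbered libraries from their group means had a correlation of -0.01 across genes. That value comes from a single difference between libraries in each sort and cannot decide whether they are paired. With a replicate block, 9346 genes differed in normal liver, 3421 higher in KC and 5925 higher in blood, and 8738 had an interaction, 5392 towards a higher value and 3346 towards a lower one. In the interaction PH KC library 3 was alone in its block and carried no weight. Of the named genes 11 newly passed with the block, Ciita no longer did, and the erythroid genes higher in blood went from 2 to 8.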
